A study of Rattus norvegicus with 23 samples.

Results

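The comparison set the 4 libraries of CG4 cells that carried the control vector against the 4 libraries of primary rat oligodendroglia, both after 3 days of differentiation, 8 of the 23 libraries of the series. Members were taken by library title alone, and no measured value entered the choice. CG4 is an immortalized line that was derived from oligodendroglia of the rat brain, and the control cells had been transduced with pCAG-IRES-EGFP, which gives GFP under a broadly active promoter. The primary cells were wild-type, carried no vector, and came from brain by way of mixed glial cultures from which they were shaken off. Both kinds of cell were expanded in medium with bFGF and PDGF-AA and then moved for 3 days to SATO medium with high T3/T4 and CNTF, and both were read as pairs of 150 bases. Proliferating libraries, kept in the growth factors, served as a second pair of groups: 3 of wild-type CG4 cells without a vector, read at 100 bases, and 4 of wild-type primary cells, read at 150 bases. The labels do not say whether the CG4 libraries came from 1 clone, or how many animals each primary library pooled. Cell source, vector, culture history and the list of genes in each file all change together between the groups, so they cannot be told apart.

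Oligodendroglia arise as dividing progenitors that depend on PDGF and carry the surface proteoglycan NG2, and they mature into cells that wrap axons in myelin. Sox10, Olig2 and Nkx2.2 hold the lineage and prepare its myelin genes, and Myrf then drives the late program together with Sox10. Thyroid hormone and CNTF push cultured progenitors toward maturity, and lipid synthesis, cholesterol above all, supplies the new membrane. A line such as CG4 is used in place of primary cells because it can be grown in quantity and still be moved toward this fate.

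Levels are CPM, counts scaled to a common library size over the genes listed in every file, by the trimmed mean of M-values (TMM). They are given per library in the order of replicate 1 to 4, or as mean ± SD (n = 4), and serve only to compare 1 gene between groups. Differences are log2 fold changes ± SE, CG4 minus primary, so a negative value means a lower level in CG4. A gene is called at an adjusted p under 0.05 in the quasi-likelihood test of edgeR. It passes the fold rule where its difference is also 1 or more in log2 units. List members counted as higher or lower passed the fold rule, unless they are said to be called. Each such count is to be read beside the share over all genes tested, 20.4% higher and 17.7% lower by the fold rule. For counts of called members the shares are 39.5% higher and 37.7% lower. The titles call the libraries biological replicates, no label says what a replicate number shares, and the p-values speak only of the spread among these libraries. Genes outside the rule by which names were chosen, among them most of those given as not called, were taken from the lists after their values were seen. In such bulk samples, fewer cells of a type and less RNA per cell cannot be told apart.

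CG4 and primary cells differed widely at this common day. Of 12477 genes tested, 9637 were called, 77.2% of all, with 4933 higher in CG4 (39.5%) and 4704 lower (37.7%). The fold rule took 4754 genes, 38.1% of all. Of these 2545 were higher in CG4 (20.4%) and 2209 lower (17.7%). The 2 groups did not overlap for 9122 genes (73.1%), so a call or a gap between groups is the common state of a gene here, and the size of the difference carries the description. The median over all genes tested was 0.02. The extreme end leaned to the primary cells, with 285 genes lower in CG4 by 5 log2 units or more and 134 higher. Across genes, mean log2 CPM of the 2 groups correlated at r = 0.825 (rho = 0.870), a description over genes, which are not independent. Single libraries correlated at 0.81 to 0.83 between the sources, at 0.98 to 0.99 within CG4 and at 0.99 to 1.00 within the primary cells. Depth over the shared genes ran from 35803989 to 44270952 counts in CG4 and from 22624183 to 36301186 in primary libraries.

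Gene names came from the authors' tables on CG4 cells, so genes expressed mainly in primary cells often have none. Of the genes past the fold rule, 373 of those lower in CG4 (16.9%) and 21 of those higher (0.825%) carried no symbol. Counts of list members therefore miss genes that are high in primary cells more often than genes that are high in CG4.

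Checked against their markers, both sources carried the lineage they are labelled with. Markers of the lineage were present in every library of both sources, and the myelin genes marked the gap between them. Of 16 panel genes, 13 were called, and of these Nkx2-2 alone was higher in CG4.

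**Figure D1:**
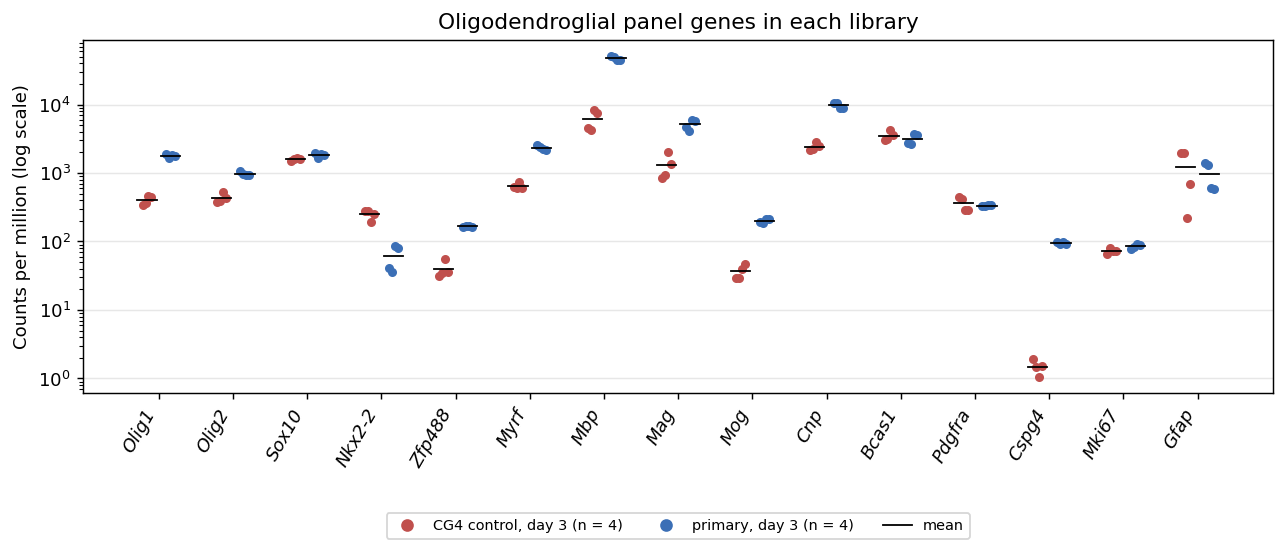
CPM (log scale) of 15 panel genes in each library of CG4 control cells (red) and primary cells (blue) after 3 days of differentiation, with black bars at the group mean. The myelin genes Mbp, Mag, Mog and Cnp lie lower in every CG4 library than in any primary library, while the groups overlap for Bcas1, Pdgfra, Mki67 and Gfap.

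Sox10, the SoxE factor that defines the lineage, was close in both sources. It stood at 1512, 1617, 1650.1 and 1623 CPM in the CG4 libraries and at 1969, 1651, 1882 and 1861 CPM in the primary ones, and the difference of -0.20 ± 0.08 passed narrowly (adjusted p = 0.0454). It was not called without CG4 replicate 1, 2 or 4 or primary replicate 1, 3 or 4 (adjusted p from 0.0705 to 0.124). Olig2, the bHLH factor of the lineage, stood at 372, 394, 519.5 and 429 CPM in CG4 and at 1069.7, 958, 938 and 935 CPM in primary cells, a difference of -1.19 ± 0.11 (adjusted p = 4.47e-06). Its relative Olig1 lay further apart, at 346, 361, 459 and 441 CPM against 1903, 1663, 1845 and 1769 CPM, a difference of -2.16 ± 0.11 (adjusted p = 8.49e-08). No CG4 library reached a primary library for either Olig gene.

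Myrf, the membrane-bound factor that switches on late myelin genes, was lower in all 4 CG4 libraries, with 633, 594, 745 and 604 CPM against 2541, 2419, 2210.2 and 2134 CPM (-1.85 ± 0.10, adjusted p = 1.31e-07). Zfp488, a zinc finger partner of Olig2, followed at 31.3, 34.99, 54.5 and 35.7 CPM against 164, 169, 167 and 164 CPM (-2.09 ± 0.16, adjusted p = 9.19e-07). The zinc finger gene St18 was nearly silent in CG4, at 0.623, 0.697, 0.546 and 0.702 CPM, and stood at 68.5, 74.5, 63.4 and 61.2 CPM in primary cells (-6.70 ± 0.12). Nkx2-2, which encodes Nkx2.2, went the other way. It stood at 278, 276, 195 and 249 CPM in CG4 and at 41.3, 35.3, 86.01 and 80.6 CPM in primary cells (2.04 ± 0.28, adjusted p = 7.71e-05), and the primary libraries split into a lower and a higher pair. Nkx6-1, a homeodomain gene of the ventral neural tube, stood at 8.14, 9.78, 10.7 and 10.4 CPM in CG4 and at 0.0314, 0.0347, 0.220 and 0 CPM in primary cells.

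Over the whole list of 29 tested oligodendrocyte regulators, 10 were lower and 2 higher in CG4 by the fold rule, 7 were not called, and the median was -0.44. Those lower included the zinc finger genes Zfp24 (-2.17 ± 0.08) and Zfp536 (-1.59 ± 0.11) and the chromatin remodeller Chd7 (-1.23 ± 0.12). Tcf7l2, the Wnt effector of early differentiation, was lower by less (-0.71 ± 0.09). Sox6 (0.16 ± 0.24), Nfia (0.10 ± 0.10) and Sox5 (-0.44 ± 0.23) were not called.

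The structural genes of myelin showed the gap most plainly. Together the 17 genes of that list held 1.76% ± 0.377 of all counts in CG4 and 8.34% ± 0.188 in primary cells (SD, n = 4 each). Mbp, myelin basic protein, alone held 0.675% ± 0.220 and 4.32% ± 0.191. In CPM it stood at 4533, 4239, 8399 and 7428 in the CG4 libraries and at 51527, 50169, 44274 and 44868 in the primary ones, a difference of -2.96 ± 0.24 (adjusted p = 1.46e-06). CG4 replicates 3 and 4 lay above replicates 1 and 2, and both pairs lay far under every primary library.

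Cnp, an enzyme of uncompacted myelin, differed by -1.99 ± 0.12 and Mag, the adhesion molecule that faces the axon, by -1.99 ± 0.27. Mog, on the outermost myelin surface, stood at 29.5, 28.8, 39.98 and 47.5 CPM against 196, 184, 211 and 215 CPM (-2.47 ± 0.16, adjusted p = 3.46e-07). For these 3 genes the highest CG4 library stayed below the lowest primary library.

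A second set of myelin genes was all but missing from CG4. Pllp, plasmolipin, stood at 0.892, 0.498, 0.546 and 0.537 CPM in CG4 and at 668, 589, 451 and 448 CPM in primary cells (-9.75 ± 0.24, adjusted p = 2.23e-09). Mobp, a cytoplasmic myelin protein, stood at 6.70, 7.64, 8.69 and 8.72 CPM against 1246, 1188, 1411 and 1429.8 CPM (-7.38 ± 0.14). Cldn11, the claudin of the myelin tight junction, stood at 24.4, 18.2, 17.3 and 22.5 CPM against 1689, 1655, 1323 and 1343 CPM (-6.19 ± 0.17). Mbp was thus counted in quantity in CG4 while these 3 genes stayed at or under 24.4 CPM in each CG4 library.

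Some members did not follow. The tetraspanin gene Cd9 stood at 1599, 1719, 2071 and 1772 CPM in CG4 and at 493, 535, 457 and 479 CPM in primary cells, so it was higher in CG4 by 1.87 ± 0.10 (adjusted p = 1.08e-07), and Cd82, another tetraspanin, by 2.43 ± 0.10. In all, 9 of 17 tested members were lower and 3 higher in CG4 by the fold rule, with a median of -1.99.

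Genes of the mature oligodendrocyte outside myelin's own proteins were also mostly lower in CG4: 20 of 35 were lower and 4 higher by the fold rule, with a median of -1.69. Gpr37, a receptor of late oligodendrocytes, differed by -5.10 ± 0.26. Aspa, which breaks down N-acetylaspartate, stood at 7.12, 5.57, 6.46 and 8.06 CPM in CG4 and at 194, 218, 179.7 and 184 CPM in primary cells (-4.83 ± 0.13). Nfasc, whose product joins glia to the axon at the paranode, stood at 1980.2, 2064, 3401 and 2194 CPM in CG4 against 16233, 15838, 12843 and 12616 CPM (-2.58 ± 0.19). Exceptions that were higher in CG4 were Padi2, which converts arginine to citrulline in myelin basic protein (1.24 ± 0.15), and the cytokine gene Il33 (4.11 ± 0.71), which stood at 55.2, 59.9, 6.85 and 11.4 CPM over the 4 CG4 libraries. Serinc5, which adds serine to membrane lipids, was not called (0.01 ± 0.07).

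Genes of newly committed, premyelinating cells gave a similar count, with 12 of 20 lower and 2 higher and a median of -1.43. Enpp6, a choline phosphodiesterase used to mark new oligodendrocytes, stood at 14.4, 12.8, 22.7 and 18.8 CPM in CG4 and at 465, 486, 325 and 325 CPM in primary cells (-4.54 ± 0.23). Casr, the calcium-sensing receptor, was among the 12 largest falls, with 0.166, 0.398, 1.23 and 0.537 CPM against 142, 141, 88.5 and 88.6 CPM (-7.63 ± 0.42). Bcas1, which marks cells entering myelination, did not follow them: it stood at 3066, 3149.8, 4214 and 3534 CPM in CG4 and at 2695, 2673, 3709 and 3624 CPM in primary cells, and was not called (0.14 ± 0.15, adjusted p = 0.42). Sirt2, a tubulin and histone deacetylase of myelin, differed by -2.14 ± 0.14, and Tubb4a, the beta tubulin of oligodendrocytes, by -2.63 ± 0.12.

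Progenitor genes did not move as 1 group. Of 29 genes, 14 were called lower in CG4 and 8 higher, 9 and 4 of them by the fold rule. The other 7 were not called, and the median was -0.48. Pdgfra, the receptor of PDGF-AA, stood at 445, 422, 284 and 287 CPM in CG4 and at 325, 327, 335 and 339.6 CPM in primary cells, with overlapping groups (0.12 ± 0.15, adjusted p = 0.488). Cspg4, which encodes NG2, stood at 1.93, 1.47, 1.05 and 1.51 CPM in CG4 and at 99.8, 91.2, 99.8 and 93.3 CPM in primary cells (-6.00 ± 0.15, adjusted p = 2.71e-09). The 2 classic progenitor markers thus gave different readings in the same libraries. Dscam, a homophilic adhesion molecule, differed by -6.88 ± 0.32 and Ednrb, an endothelin receptor, by -3.43 ± 0.19, while Susd5 was higher by 4.58 ± 0.30 and the proteoglycan phosphatase gene Ptprz1 by 0.52 ± 0.10.

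Transcripts of lipid synthesis genes were mostly lower in CG4, above all those of the cholesterol branch. Of 27 tested genes of cholesterol synthesis and uptake, 17 were lower by the fold rule, 2 were called higher by smaller amounts, and the median was -1.37. Hmgcs1, which forms HMG-CoA, stood at 608, 721, 1186 and 667 CPM in CG4 and at 4015, 4195, 3168 and 3188 CPM in primary cells (-2.19 ± 0.21, adjusted p = 6.13e-06). Idi1, an isomerase of the same route, stood at 134, 144, 188 and 149.9 CPM against 1099, 1281, 810.2 and 824 CPM (-2.71 ± 0.17).

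The carrier gene Apoe stood at 21.7, 16.3, 23.2 and 20.3 CPM in CG4 and at 678, 596, 355 and 355 CPM in primary cells (-4.61 ± 0.25). Dhcr7, a late enzyme of the route, was not called (-0.13 ± 0.17), and Srebf2, the master regulator of the route, was higher in CG4 by 0.71 ± 0.09. Its relative Srebf1, which drives fatty acid genes, went the other way and differed by -3.82 ± 0.20. Among 30 fatty acid and sphingolipid genes, 9 were lower and 4 higher (median -0.65). Ugt8, which makes the galactolipids of myelin, differed by -2.35 ± 0.17, Fa2h, which hydroxylates their fatty acids, by -1.49 ± 0.17. The desaturase gene Scd2 differed by -0.75 ± 0.20, and was not called against primary libraries 3 and 4 alone (adjusted p = 0.0811). Fads1 (-0.16 ± 0.22) and Fads2 (0.28 ± 0.20), the desaturases of long unsaturated fats, were not called.

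CG4 cells in turn carried large amounts of matrix transcripts of a kind known from cartilage. The grouping of cartilage genes was made after their values were seen, and its 21 genes are given as a description. They held 1.90% ± 0.237 of counts in CG4 and 0.107% ± 0.00875 in primary cells (SD, n = 4 each). Col11a1, a chain of the fibrillar collagen XI, stood at 6082, 6951, 6985 and 5516 CPM in CG4 and at 76.8, 77.4, 90.4 and 87.2 CPM in primary cells (6.27 ± 0.14, adjusted p = 8.99e-10). Col11a2, its partner chain, stood at 5028, 5309.97, 8782 and 7338 CPM against 656, 611, 672 and 597 CPM (3.38 ± 0.19). In CG4 these chains were counted about as often as Mbp, for which the group mean was 6149.7 CPM against 6384 CPM for Col11a1, a comparison of counts and not of levels per length.

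Col2a1, the collagen that defines cartilage, stood at 285, 457, 193 and 209.5 CPM in CG4 and at 0.659, 0.556, 1.76 and 1.37 CPM in primary cells (8.11 ± 0.43). Acan, the large proteoglycan aggrecan, stood at 727, 1267, 1691 and 1268 CPM against 51.2, 47.2, 101 and 102 CPM (4.04 ± 0.35), and Hapln1, the link protein that ties it to hyaluronan, at 301, 365, 265 and 225 CPM against 0.659, 0.938, 0.484 and 0.426 CPM (8.80 ± 0.24). Col9a1 (6.23 ± 0.19), Cnmd, an inhibitor of vessel growth in cartilage (7.90 ± 0.38), and the Wnt antagonist gene Frzb (7.31 ± 0.34) were higher as well. Sox9, the factor that drives such genes in cartilage, was lower in CG4, at 9.22, 13.1, 9.64 and 14.5 CPM against 44.4, 41.3, 22.5 and 21.8 CPM (-1.49 ± 0.26, or -0.93 against primary libraries 3 and 4 alone), and its partners Sox5 and Sox6 were not called.

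The broader matrix list held members in both directions: 19 of 38 were higher and 10 lower in CG4 by the fold rule, with a median of 1.10. Col16a1, a collagen that associates with fibrils, stood at 2246, 2213, 2036 and 1832 CPM in CG4 and at 67.7, 70.9, 67.6 and 53.8 CPM in primary cells (5.001 ± 0.13). The laminin chains Lamb1 (4.11 ± 0.25) and Lama5 (3.62 ± 0.10) and the small proteoglycan Bgn (4.95 ± 0.31) were higher too. Sparcl1, a secreted matrix protein of glia, showed one of the 12 largest falls, at 1.08, 1.14, 1.34 and 1.96 CPM in CG4 and 618, 635, 423 and 447 CPM in primary cells (-8.57 ± 0.25). Col5a2 (-6.34 ± 0.27), Nid1 (-4.43 ± 0.19) and Tnc, the tenascin of immature glia (-2.31 ± 0.50), were lower.

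Receptors of that matrix followed in part. Among 36 integrin and adhesion genes, 10 were higher and 10 lower in CG4, with a median of -0.02. Itgb4 (5.26 ± 0.50), Itga7 (3.34 ± 0.27) and Itga3 (3.38 ± 0.32), subunits of laminin receptors, were higher, while Itgb1, the common beta subunit, was not called (0.07 ± 0.07). Cadm4, the glial partner in contact with axons, differed by -1.03 ± 0.10.

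Where 1 source averaged 5 CPM or more and the groups did not overlap, the 12 largest relative differences in favor of CG4 included 3 homeobox genes of neural or sensory development. Tlx3, a homeobox gene of sensory neurons, stood at 15.8, 12.9, 8.73 and 16.8 CPM in CG4 and had no count in any primary library. Against a floor of 3 counts over the primary group it was at least 476-fold higher. Hmx3, a homeobox gene of the inner ear and hypothalamus, stood at 8.16, 8.81, 7.89 and 8.37 CPM with no primary count, at least 289-fold higher. Its neighbor in the same family, Hmx2, had 1 count in the 4 primary libraries and 1356 in the CG4 libraries, a ratio of 784 (95% exact counting interval 140 to 31000). Such intervals and floors cover counting error only.

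Dmrt2, a zinc finger-like regulator of body segments, stood at 18.2, 11.9, 6.53 and 11.7 CPM in CG4, and its 3 primary counts gave a ratio of 426 (146 to 2070). Prph, an intermediate filament of peripheral neurons, stood at 89.4, 171, 175 and 113 CPM against 0.502, 0.347, 0.308 and 0.426 CPM (8.41 ± 0.32). Vdr, the vitamin D receptor, stood at 20.3, 26.2, 22.5 and 18.5 CPM against 0.0628, 0, 0.132 and 0.0947 CPM (8.27 ± 0.32). Mrgprf, an orphan receptor (1490-fold, 266 to 58700), and the asparaginase gene Aspg (999-fold, 179 to 39500) each rested on 1 primary count. The clone-named genes AABR07040847.1 (at least 260-fold), AC120568.1 (8.84 ± 0.84) and AABR07065531.3 (8.23 ± 1.01), with no known role here, complete the 12 together with Hapln1. For each of these genes every CG4 library lay above every primary library, which the rule that picked them required.

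**Figure D2:**
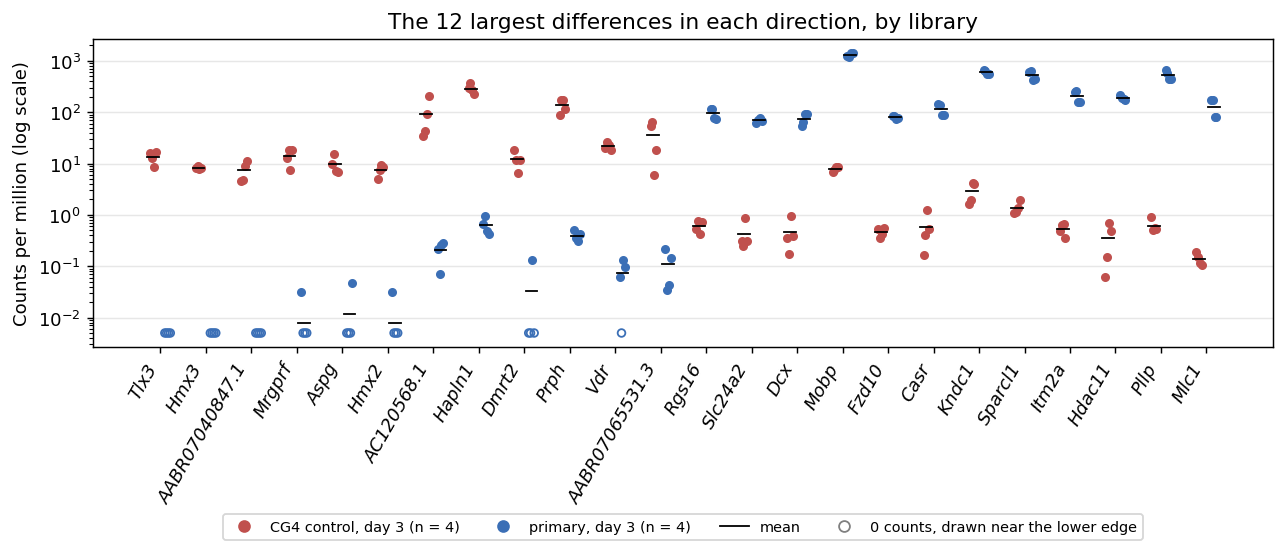
CPM (log scale) of the 12 largest differences in each direction, by library, where 1 source averaged 5 CPM or more, for CG4 control cells (red) and primary cells (blue) on day 3, with black bars at the group mean and open symbols for libraries with 0 counts. Tlx3, Hmx3 and AABR07040847.1 have no count in any primary library, and Mlc1 and Pllp lie below 1 CPM in every CG4 library.

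Of 16 tested genes in a grouping of sensory and cranial neuron regulators, made after values were seen, 14 passed the fold rule as higher in CG4. Their summed level stayed at 200.2 to 272 CPM in CG4 and at 12.2 to 13.7 CPM in primary cells. Isl1, a LIM homeodomain gene of sensory and motor neurons, stood at 8.43, 5.08, 3.73 and 3.82 CPM in CG4 (6.68 ± 0.47).

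Genes of position in the brain differed as well: 8 of 18 were higher in CG4 and 3 lower, with a median of 0.38. The midbrain and hindbrain genes En1 (2.33 ± 0.14) and En2 (2.29 ± 0.14) and the Iroquois genes Irx3 (5.44 ± 0.24) and Irx5 (4.11 ± 0.23) were higher. The forebrain gene Lhx2 was lower, at 2.28, 2.94, 2.80 and 3.10 CPM against 24.5, 24.00, 19.98 and 21.7 CPM (-3.02 ± 0.13).

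On the primary side the 12 largest differences joined myelin genes with genes of several other kinds, among them genes of signalling. Mlc1, a membrane protein of astrocyte endfeet, stood at 0.187, 0.149, 0.114 and 0.103 CPM in CG4 and at 173, 169, 81.96 and 81.2 CPM in primary cells (-9.80 ± 0.43, adjusted p = 3.21e-08). Hdac11, a histone deacetylase of oligodendrocytes, stood at 0.0623, 0.149, 0.682 and 0.496 CPM against 213, 191, 184 and 175 CPM (-9.08 ± 0.36). Itm2a, an integral membrane protein (-8.62 ± 0.28), Kndc1, a guanine nucleotide exchange factor of neurites (-7.68 ± 0.32), and Fzd10, a Wnt receptor (-7.40 ± 0.13), followed. The others were Slc24a2, a calcium exchanger (-7.32 ± 0.28), Rgs16, which shuts off G proteins (-7.29 ± 0.24), and Dcx, the microtubule protein of migrating neurons (-7.33 ± 0.37), beside Pllp, Mobp, Sparcl1 and Casr. Mlc1 was also higher in primary libraries 1 and 2 than in 3 and 4, and both of these pairs lay far above every CG4 library.

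Because these genes were close to all or none between the sources, the bases just before their starts are shown for the first 3 in each direction that have an entry in RefSeq's promoter table. The table matched 18 of the 24 genes. The sequences are from build GRCr8, run 5′ to 3′ on the gene's strand over the 150 bases before the start, and carry CG pairs in capitals. For the genes higher in CG4 they are as follows.
Tlx3: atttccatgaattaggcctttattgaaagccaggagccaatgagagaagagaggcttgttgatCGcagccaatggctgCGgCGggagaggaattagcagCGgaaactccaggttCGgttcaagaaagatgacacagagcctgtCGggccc
Hmx3: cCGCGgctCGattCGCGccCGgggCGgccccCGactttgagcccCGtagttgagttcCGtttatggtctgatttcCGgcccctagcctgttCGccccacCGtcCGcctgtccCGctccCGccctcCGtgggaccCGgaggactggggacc
Aspg: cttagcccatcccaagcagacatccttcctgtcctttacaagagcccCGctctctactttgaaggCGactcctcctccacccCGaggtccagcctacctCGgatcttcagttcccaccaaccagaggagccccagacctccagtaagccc
For the genes lower in CG4 they are as follows.
Mlc1: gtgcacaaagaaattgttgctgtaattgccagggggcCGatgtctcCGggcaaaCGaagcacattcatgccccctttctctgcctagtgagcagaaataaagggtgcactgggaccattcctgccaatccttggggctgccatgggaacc
Pllp: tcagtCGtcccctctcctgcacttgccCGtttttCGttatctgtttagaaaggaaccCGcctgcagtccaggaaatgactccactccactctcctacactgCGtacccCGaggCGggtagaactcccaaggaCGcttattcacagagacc
Itm2a: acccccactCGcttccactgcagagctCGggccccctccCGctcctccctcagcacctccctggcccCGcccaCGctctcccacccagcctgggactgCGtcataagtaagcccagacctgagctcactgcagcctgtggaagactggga
Tlx3 lies at chr10:18296552-18296701 (minus strand), Hmx3 at chr1:195743261-195743410 (plus strand) and Aspg at chr6:136997873-136998022 (plus strand). Mlc1 lies at chr7:121946699-121946848 (minus strand), Pllp at chr19:10320930-10321079 (plus strand) and Itm2a at chrX:76565145-76565294 (minus strand).

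The number of CG pairs in the window was 6 for Tlx3, 18 for Hmx3 and 4 for Aspg, and 3 for Mlc1, 8 for Pllp and 6 for Itm2a. The median was 12 over 8730 tested genes with a promoter entry, 6 over the 82 that were higher in CG4 by 5 log2 units or more, and 8 over the 57 that were lower by as much. The letters ACAAAG, a core known to be bound by Sox factors, were searched on both strands. Of the 6 windows the one of Mlc1 held them, against 9.4% of all 24205 RefSeq windows of this length and 6.0% of those of tested genes. They were present in 14% of the windows of genes lower in CG4 by at least 5 and in 6.1% of those higher by as much. A match is a description of letters, and DNA methylation and binding were not measured.

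Across the lists with at least 8 tested genes, leaving out the groupings made after values were seen, the medians ran from structural myelin genes (-1.99) to Schwann cell and neural crest markers (1.89) and Wnt genes (1.80). Leaving out 1 library moved list counts of 5 or fewer genes by at most 2.

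**Figure D3:**
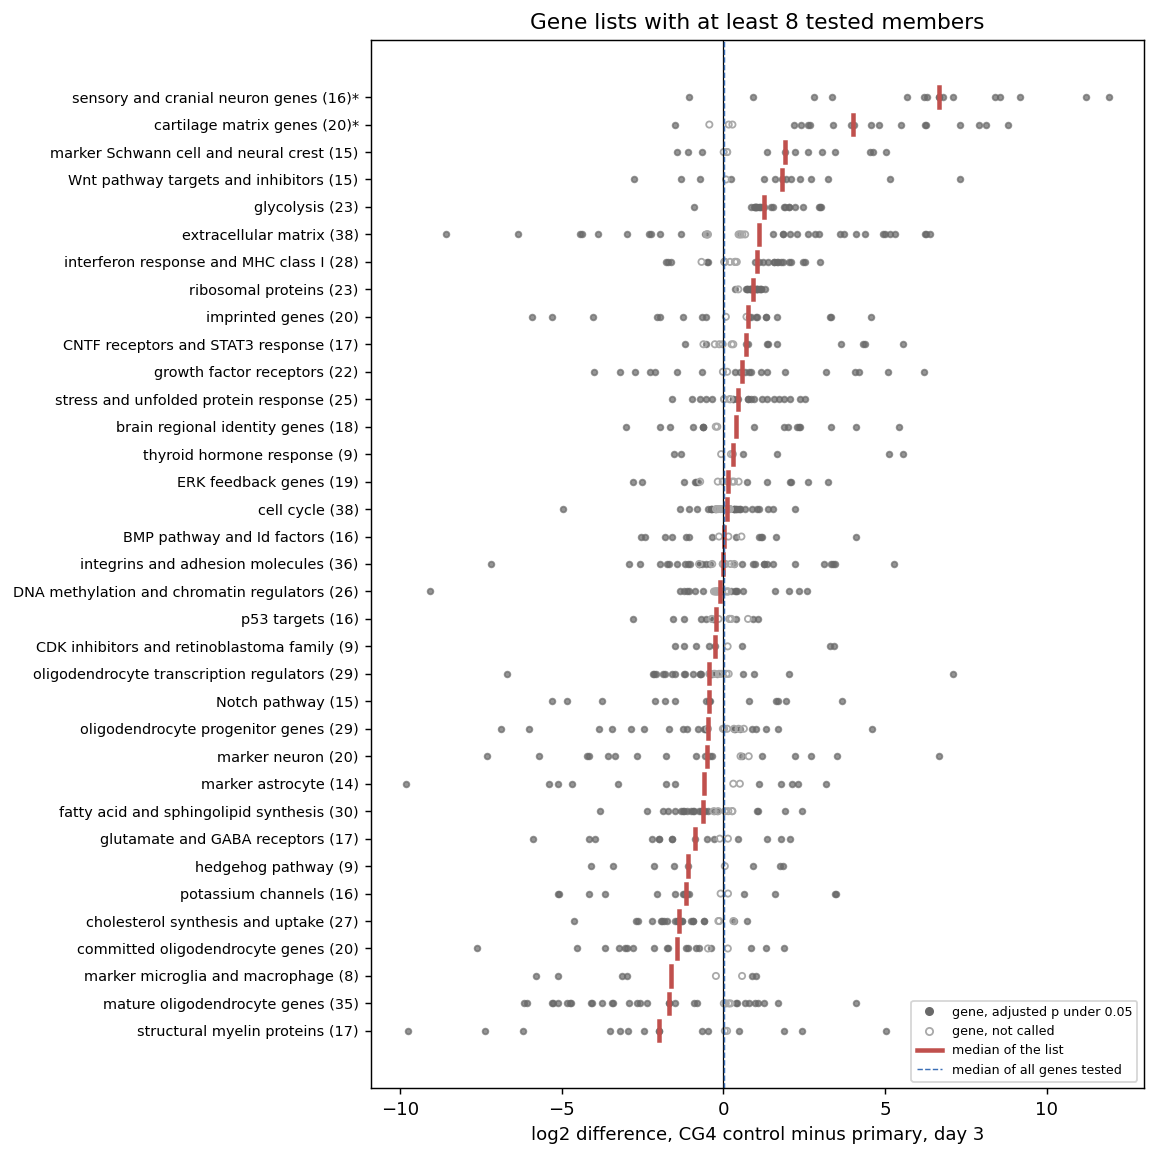
Log2 difference, CG4 control minus primary on day 3, of each tested member of the gene lists with at least 8 tested members (number in brackets), sorted by the list median (red bar); filled points are called genes, open points are not, and lists marked * were grouped after values were seen. Structural myelin, mature and committed oligodendrocyte and cholesterol genes have medians below -1, and glycolysis, matrix and Wnt genes have medians above 1.

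Most genes of glycolysis were higher in CG4. Of 23 tested genes of glycolysis and lactate handling, 22 were called higher, 17 of them by the fold rule, and 1 was called lower (median 1.26). Ldha, which makes lactate, stood at 2949, 3128, 2936 and 2826 CPM in CG4 and at 584, 555, 506 and 522 CPM in primary cells (2.45 ± 0.08, adjusted p = 8.17e-09). Pkm, pyruvate kinase, stood at 2754, 2989, 2405 and 2639.6 CPM against 340.2, 290.2, 384 and 383 CPM (2.95 ± 0.12), and Pdk1, which holds pyruvate back from mitochondria, was higher by 2.98 ± 0.17. Slc2a1, the main glucose carrier of glia, was the one gene lower (-0.92 ± 0.07). Tpi1 was near 0 in both sources, so its call (1.91 ± 0.36) rests on few reads.

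Genes of the translation machinery were higher in CG4 by a smaller and even amount. Of 23 ribosomal protein genes 22 were called higher, with a median of 0.92, and 9 passed the fold rule, or 5 without CG4 replicate 3. Rplp0, of the ribosomal stalk, differed by 1.13 ± 0.09 and Rpl3, near the catalytic center, by 1.29 ± 0.10. The elongation factor genes Eef1a1, at 5793, 6635, 7324 and 6438 CPM against 3688, 3529, 3450.2 and 3482 CPM (0.89 ± 0.10), and Eef2 (0.74 ± 0.11) were among the largest gains in CPM. Many of these genes have near-identical copies, and how such reads were counted is not given in the sources used here.

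Among stress response genes 8 of 25 were higher and 1 lower, with a median of 0.46. Shmt2, of mitochondrial serine use (2.05 ± 0.11), Asns, which makes asparagine (1.87 ± 0.13), and the stress factor Atf3 (2.36 ± 0.50) were higher, while Hspa5, the chaperone that senses unfolded proteins, differed by 0.42 ± 0.10 and Ddit3 by 0.76 ± 0.10.

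Cell cycle genes differed less than most groups. Mki67, the standard marker of dividing cells, stood at 66.3, 80.9, 72.4 and 73.1 CPM in CG4 and at 78.5, 82.4, 91.1 and 88.1 CPM in primary cells, with overlapping groups and a small difference of -0.22 ± 0.08 (adjusted p = 0.0292), which was not called without CG4 replicate 1, 3 or 4 or primary replicate 2, 3 or 4 (adjusted p from 0.0501 to 0.0979). Of 38 cell cycle genes 15 were called higher and 10 lower, 5 and 3 of them by the fold rule, and 13 were not called (median 0.12). Over all genes tested 39.5% were called higher and 37.7% lower, and 20.4% and 17.7% passed the fold rule. Among the cell cycle genes past the fold rule were cyclins and kinases of the G1 phase and of entry into S phase. Ccne1 (1.55 ± 0.19), Cdk2 (1.38 ± 0.10) and Cdk4 (1.11 ± 0.11) were higher in CG4, Ccnd1 (-1.06 ± 0.14) and Cdk6 (-4.97 ± 0.38) were lower, and Top2a, a mitotic topoisomerase gene, was not called (-0.10 ± 0.09).

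The inhibitors of these kinases divided by gene. Cdkn1c, which encodes p57, stood at 3532, 3660.2, 1930.02 and 2005 CPM in CG4 and at 212, 207, 352 and 356 CPM in primary cells (3.30 ± 0.29, adjusted p = 2.90e-06), with replicates 1 and 2 above 3 and 4 in CG4. Cdkn2a, the locus of p16 and p19Arf, stood at 193, 197, 195 and 243 CPM against 25.03, 21.3, 15.9 and 14.7 CPM (3.42 ± 0.17). Cdkn1a, p21, differed by -1.22 ± 0.21. The retinoblastoma gene Rb1 differed by -1.49 ± 0.13. Of 16 genes in the p53 list 3 were lower and 1 higher, beside 17.7% lower and 20.4% higher over all genes tested. Ccng1, cyclin G1, stood at 76.6, 72.5, 66.8 and 66.4 CPM against 506, 569, 445 and 444 CPM (-2.80 ± 0.10).

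The medium held CNTF and thyroid hormone, and genes of both pathways were read. Cntfr, the specific subunit of the CNTF receptor, was higher in CG4, at 43.8, 45.6, 55.9 and 49.1 CPM against 15.2, 12.3, 15.6 and 17.99 CPM (1.67 ± 0.13), while its partner subunit Lifr was not called (-0.13 ± 0.18). Of 17 genes of that list 7 were higher and 1 lower (median 0.71). Bcl3, at 81.8, 77.1, 33.7 and 55.9 CPM against 1.54, 1.46, 1.06 and 1.14 CPM (5.56 ± 0.32), Timp1, a protease inhibitor (4.38 ± 0.23), and Socs2, a feedback inhibitor (3.65 ± 0.31), were among those higher, as was Myc, at 492, 539, 477 and 599 CPM against 26.03, 24.5, 28.5 and 27.3 CPM (4.31 ± 0.10, adjusted p = 1.68e-09).

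Gfap, an astrocyte filament that CNTF can raise in glia, varied too widely between libraries for a call. It stood at 1945, 1974, 217 and 679 CPM in CG4 and at 1381, 1316, 608 and 592 CPM in primary cells (0.31 ± 0.59, adjusted p = 0.649), with replicates 1 and 2 above 3 and 4 in both sources. Of 9 tested genes of thyroid hormone response, 3 were higher and 2 lower by the fold rule (median 0.29). The thyroid hormone receptors Thra (-1.54 ± 0.16) and Thrb (-1.31 ± 0.13) were lower in CG4, and their partners Rxrg (5.12 ± 0.49) and Rxra (1.65 ± 0.15) were higher, as was Bcl3 (5.56 ± 0.32), which the CNTF list holds too. The hormone response genes Hr (0.61 ± 0.08) and Klf9 (-0.07 ± 0.09) differed less, and Klf9 was not called.

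Growth factor receptors moved in both directions, with 8 of 22 higher and 6 lower in CG4 (median 0.58). The neuregulin receptor pair Erbb2, at 121, 127, 91.1 and 79.1 CPM against 7.16, 6.60, 3.70 and 5.44 CPM (4.18 ± 0.23), and Erbb3, at 1612, 1239, 1115 and 1260.3 CPM against 273, 274, 433 and 427 CPM (1.89 ± 0.19), was higher, while Erbb4 was lower (-2.73 ± 0.14). Fgfr3, a receptor of immature glia, was higher by 3.17 ± 0.18 and Fgfr2, the receptor of mature oligodendrocytes, differed by -2.11 ± 0.13. Of the TAM family of receptor kinases, Axl was higher by 4.07 ± 0.31 while Tyro3 was lower, at 17.3, 18.9, 37.8 and 28.1 CPM against 452, 423, 382 and 377 CPM. Genes that report on ERK activity gave no common direction, since Spry4 (-2.79 ± 0.17) was lower, Egr3 (3.23 ± 0.53) higher and Dusp6 (-0.02 ± 0.21) not called.

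Of 15 Notch pathway genes 4 were higher and 6 lower in CG4 (median -0.44). The ligands Jag1 (1.94 ± 0.17) and Jag2 (3.65 ± 0.18) and the receptor Notch1 (1.70 ± 0.09) were higher in CG4, and the receptor Notch3 (-4.85 ± 0.18) and the inhibitory ligand Dll3 (-5.31 ± 0.17) were lower. Of 15 Wnt targets and inhibitors 10 were higher and 2 lower (median 1.80). Lef1, a nuclear effector, was among them (5.15 ± 0.37), as were the inhibitors Sfrp1 (1.80 ± 0.24) and Apcdd1 (2.36 ± 0.15). The 16 BMP genes had a median of 0.01, with Bmp7 (4.10 ± 0.31) and the Id genes Id1 (1.63 ± 0.10) and Id3 (1.19 ± 0.20) higher and Bmp4 (-1.16 ± 0.24) and the inhibitor Smad7 (-2.55 ± 0.21) lower. Of 9 hedgehog genes 5 were lower and 2 higher. The decoy receptor Hhip (-4.11 ± 0.23) and Gli3 (-3.40 ± 0.22) were lower, and the receptor and target Ptch1 was not called (0.04 ± 0.09).

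Genes of MHC class I and its peptide loading were higher in CG4. Of 28 tested interferon and class I genes 14 were higher and 3 lower (median 1.03). RT1-A2, a rat class I heavy chain, stood at 80.9, 87.5, 89.7 and 99.4 CPM against 14.2, 12.5, 8.27 and 9.99 CPM (2.98 ± 0.16), and class I genes resemble each other closely, so reads may be split between them. B2m, their light chain, differed by 1.22 ± 0.13, Tap1, the peptide pump, by 2.02 ± 0.15 and Psmb9, of the immune proteasome, by 2.54 ± 0.22. The interferon regulator Irf7 was not called (0.36 ± 0.28).

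Imprinted genes, expressed from 1 parental copy, held large differences in both directions, with 8 of 20 higher and 6 lower (median 0.76). Plagl1, a zinc finger regulator of growth, was higher by 4.55 ± 0.38 and the growth factor gene Igf2 by 3.33 ± 0.19, beside Cdkn1c. Ndn, which encodes necdin, stood at 11.6, 10.1, 11.5 and 10.4 CPM in CG4 and at 460.03, 454, 397 and 393 CPM in primary cells (-5.29 ± 0.10), and Magel2, from the same cluster, differed by -5.93 ± 0.44. Of 26 chromatin regulators 5 were lower and 4 higher, close to the shares over all genes tested (17.7% lower and 20.4% higher). The DNA methyltransferase gene Dnmt3a was lower (-1.36 ± 0.13) and Dnmt3b (2.57 ± 0.26) and the architectural gene Hmga1 (2.04 ± 0.12) higher.

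Channels and transmitter receptors of the oligodendrocyte membrane were mostly lower in CG4. Of 16 potassium channel genes 10 were lower and 3 higher (median -1.17), with Kcnq3 (-5.12 ± 0.22) and Kcna2 (-3.66 ± 0.27) lower and Kcnk1 (3.48 ± 0.48) higher. Of 17 receptor subunit genes 8 were lower and 3 higher (median -0.87). The kainate subunit Grik2 (-1.99 ± 0.11) and the GABA receptor subunit Gabra2 (-5.89 ± 0.17) were lower, the GABA receptor gene Gabbr2 was higher (1.78 ± 0.34), and the AMPA subunit Gria4 was not called (-0.11 ± 0.16).

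Markers of other cells that a mixed glial culture can hold were read in the same libraries. Astrocyte markers summed to 3001 to 4831 CPM in CG4 and 1685 to 2958 CPM in primary cells over 14 of 19 genes. Of these 7 were lower in CG4, among them the connexin gene Gja1 (2.28, 2.91, 1.55 and 1.69 CPM against 99.7, 102, 44.5 and 46.3 CPM) and the glutamate carrier Slc1a2 (-5.38 ± 0.21), and 5 were higher, among them S100b (1.78 ± 0.23) and Fgfr3 (3.17 ± 0.18). Gfap, which was not called, and Fgfr3 gave means of 1204 and 1012 CPM of the CG4 sums, against 974 and 112 CPM in primary cells. Mature oligodendrocytes and their progenitors also express several genes of this list.

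Microglia markers were found for 8 of 21 genes, and 4 were lower and 1 higher in CG4 by the fold rule, with 2 called higher at any size. Csf1r, the receptor microglia depend on, stood at 0.208, 0.199, 0.182 and 0.330 CPM in CG4 and at 14.9, 14.03, 11.2 and 12.2 CPM in primary cells, and Laptm5, a leukocyte protein, differed by -5.12 ± 0.25. P2ry12, a purine receptor of microglia, was the gene higher, at 2.28, 1.34, 1.07 and 2.02 CPM against 0.722, 0.799, 0.748 and 1.09 CPM (1.01 ± 0.28), and was not called against primary libraries 3 and 4 alone (adjusted p = 0.0807). The summed level of the 8 genes found was 79.96 to 99.6 CPM in CG4 and 91.5 to 112 CPM in primary cells. Csf1r, Laptm5 and P2ry12 had means of 0.230, 0.471 and 1.68 CPM in CG4, so most of the CG4 sum came from other genes of the list. In primary cells these 3 had means of 13.1, 16.2 and 0.840 CPM. Of the markers found by symbol, for any cell type, none was at 0 in a whole group. Listed markers without a symbol here could not be read, so neither the sum nor this count covers them. Neuronal markers summed to 956 to 1382 and 1363 to 1434 CPM over 20 of 22 genes, 8 lower and 5 higher in CG4. Gad2, a GABA-making enzyme, differed by -5.70 ± 0.57 and the RNA-binding protein gene Elavl3 by -4.22 ± 0.13, whereas the neurofilament gene Nefl (2.23 ± 0.50) and Uchl1 (2.71 ± 0.13) were higher. The part of such cells in the differences of Mlc1, Dcx and the channel genes between the sources was not tested.

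Schwann cell and neural crest markers were higher in CG4 in 9 of 15 genes and lower in 2 (median 1.89, summed level 1936 to 2630 against 1037 to 1285 CPM). Erbb3, listed here and described above as a neuregulin receptor, gave 1612, 1239, 1115 and 1260.3 CPM of the CG4 sums. It gave 273, 274, 433 and 427 CPM of the primary sums. Prx, periaxin (3.06 ± 0.29), Egr2, the regulator of peripheral myelination (2.62 ± 0.50), and the crest factors Tfap2a (4.62 ± 0.44) and Tfap2b (4.52 ± 0.34) were higher. Fibroblast, pericyte and endothelial markers were found for 8 of 18 genes and tested for 6, with Col3a1 (-3.87 ± 0.37) and Cspg4 lower and Vwf (3.38 ± 0.15) and Kdr (1.52 ± 0.17) higher. The summed level was 72.5 to 92.2 CPM in CG4 and 105 to 121 CPM in primary cells. Cspg4, listed here for pericytes and described above as a progenitor gene, gave 99.8, 91.2, 99.8 and 93.3 CPM of the primary sums, and Vwf gave 54.7, 66.3, 64.4 and 56.3 CPM of the CG4 sums. Ependymal markers, found for 5 of 10 genes, summed to at most 9.98 CPM in any library.

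The proliferating libraries give the same comparison before differentiation. Proliferating CG4 and primary cells differed in 5096 of 13207 genes by the fold rule (38.6%), with 9403 called (71.2%), against 38.1% on day 3. Of the 4753 genes past the fold rule on day 3 and tested here, 1596 also passed in the same direction in proliferating cells, 813 in the opposite one, and 2344 did not pass. The change of the source difference, day 3 minus proliferating, was called for 9146 genes (69.3%), 6142 by the fold rule (46.5%). These contrasts also carry the shorter reads and the missing vector of the proliferating CG4 libraries, which cannot be told apart from the state. Gapdh, which every cell uses, was listed near 0 in those libraries alone (0.174 CPM, against 1307 in proliferating primary cells), so a value near 0 there is not read as absence, and large changes of single genes between the states were not used beyond the genes given next.

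The gaps of day 3 in Mbp and Cnp were not found in proliferating cells. Mbp was higher in proliferating CG4 than in proliferating primary cells (0.86 ± 0.24) and its difference changed by -3.82 ± 0.34 by day 3 (adjusted p = 1.62e-07). The same turn was seen for Cnp (0.93 ± 0.13, then changed by -2.93 ± 0.18) and Zfp488 (2.02 ± 0.16, changed by -4.12 ± 0.22), and Myrf went from 0.34 ± 0.22, not called, by -2.20 ± 0.30. Nkx2-2 turned the other way, from -1.87 ± 0.35 in proliferating cells by 3.90 ± 0.48. Cspg4 was already lower in proliferating CG4, at a mean of 2.63 CPM against 95.9 (-5.19 ± 0.15). Hapln1 (8.48 ± 0.24), Acan (4.10 ± 0.46) and Dmrt2 (9.14 ± 0.71) were already higher, with no called change for these 3. The collagen genes Col11a2 (3.83 ± 0.27), Col2a1 (5.68 ± 0.67) and Col9a1 (8.02 ± 0.72) were already higher too, also with no called change. Col11a1 (3.33 ± 0.31) and Col16a1 (1.84 ± 0.14) were already higher as well, but their differences grew by 2.92 ± 0.42 and 3.15 ± 0.20 by day 3, and both changes were called. Mog, Pllp and Mlc1 were listed at 0.714, 0.162 and 0 CPM in proliferating CG4, so near 0 that no difference is read from them. Among cholesterol genes Hmgcs1 (0.01 ± 0.21) and Idi1 (-0.03 ± 0.15) were not called in proliferating cells, and their differences changed by -2.21 ± 0.29 and -2.69 ± 0.21 by day 3.

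**Figure D4:**
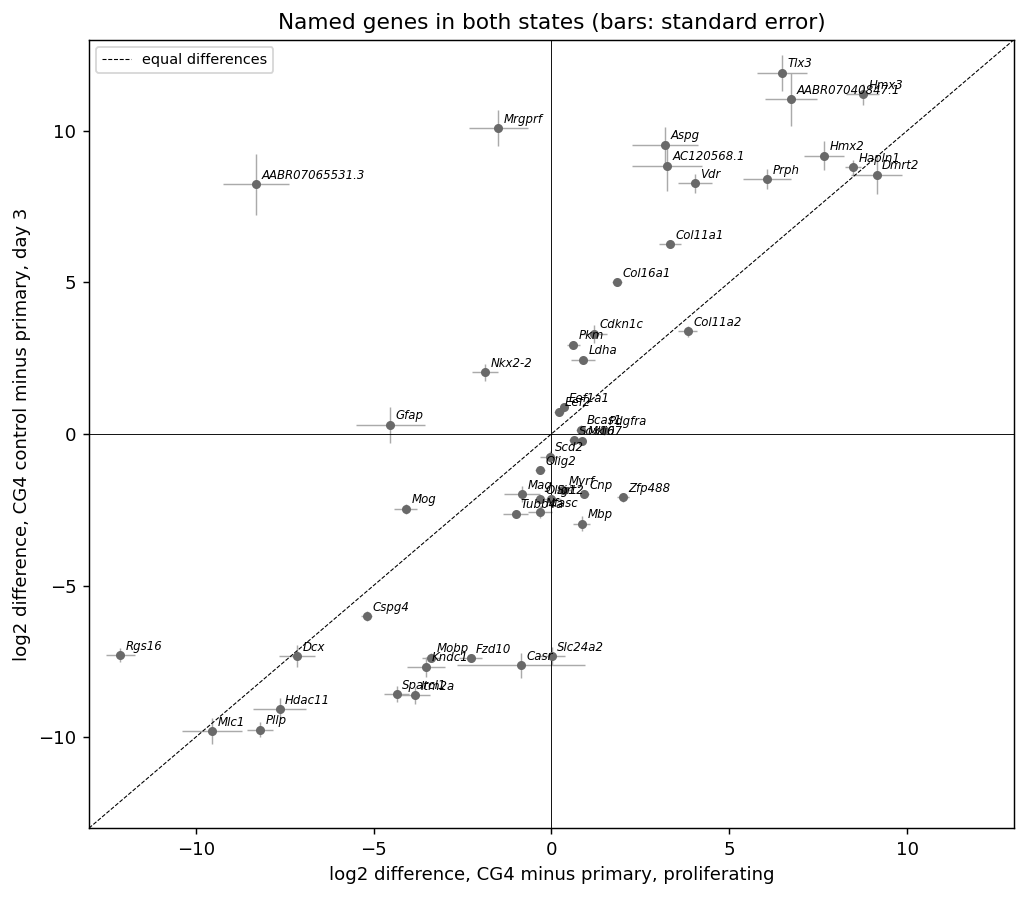
Log2 difference between CG4 and primary cells in the proliferating state (horizontal) and on day 3 (vertical) for 15 panel genes and the genes with the largest differences, with standard errors as bars and a dashed line of equal differences. Cspg4, Hapln1 and Dmrt2 lie near the line, while Mbp, Cnp and Zfp488 lie above 0 on the horizontal axis and below 0 on the vertical one.

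Position in the genome was looked at after the values were seen. RefSeq's promoter table (GRCr8) placed 7233 tested genes with 5 CPM or more on average on a chromosome, and their median difference on day 3 was 0.00. The 175 genes on chromosome 18 had a median of -0.93, with 81.1% of them lower in CG4, and 80 passed the fold rule as lower against 12 as higher. The 386 genes on chromosome 7 had a median of 0.55, with 113 higher and 25 lower by the fold rule. Over all 12477 genes tested, a wider set that also holds genes under 5 CPM or without a place, 17.7% were lower and 20.4% higher. Medians of all other chromosomes lay between -0.19 and 0.18.

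Each CG4 library showed both shifts, with a chromosome 18 median of -0.96 to -0.80 and a chromosome 7 median of 0.47 to 0.59 against the mean of the primary libraries. Each primary library against the other 3 gave -0.03 to 0.05 and -0.02 to 0.04. When the genes of chromosome 7 were divided into 5 equal parts in their order, the medians were 0.20, 0.46, 0.34, 0.91 and 0.74, and those of chromosome 18 were -1.27, -0.73, -1.03, -0.48 and -0.96. In proliferating cells the medians were -0.16 for chromosome 18 and 0.30 for chromosome 7, where all placed genes had 0.16. Neither stood outside the others there. Chromosomes 15 (0.41), X (0.35), 3 (0.34) and 2 (0.33) lay above chromosome 7, and chromosome 20 (-0.14) lay next to chromosome 18, the lowest. List members on chromosome 18 that were lower in CG4 include Zfp24, Spry4, Smad7, Csf1r, the cholesterol transporter Npc1 (-1.41 ± 0.10) and the histone deacetylase Hdac3 (-1.13 ± 0.09), while Apcdd1, also there, was higher. DNA copy number was not measured.

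**Figure D5:**
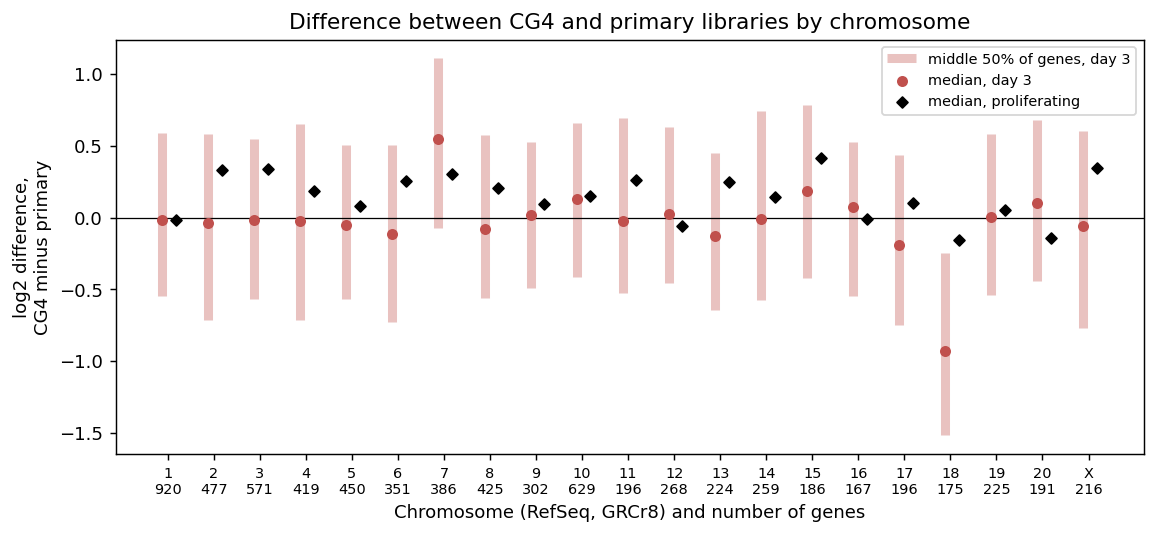
Median log2 difference between CG4 and primary cells by chromosome (RefSeq placement, number of genes under each name), on day 3 (red points, with bars over the middle 50% of genes) and in proliferating cells (black diamonds). On day 3 chromosome 18 lies at -0.93 and chromosome 7 at 0.55, outside the other chromosomes, which lie between -0.19 and 0.18.

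The libraries of each source were not equally close to each other. Primary libraries 1 and 2 and libraries 3 and 4 formed close pairs, with a chi-square over degrees of freedom of 8.16 and 1.74 within the pairs and 28.1 to 35.5 across them, and counting noise alone gives about 1. Of the CG4 libraries, 1 and 2 were closest (21.9), and the other pairs gave 65.8 to 152, with 66.2 for 3 and 4, so 3 and 4 were no close pair over all genes. For Mbp, Pdgfra, Il33, Gfap and Cdkn1c, picked for that pattern, CG4 replicates 1 and 2 lay apart from 3 and 4. With the primary libraries summed within their pairs, 4966 genes passed the fold rule, and 4659 of the 4754 genes counted above were among them, all in the same direction.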

How the data were processed

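The authors deposited raw counts per Ensembl gene for each library. Per the submitters' processing notes, reads were handled with Trimmomatic 0.36, STAR 2.5.2b and, from Subread 1.5.2, featureCounts, on rat build rn6. The sources used here give neither the annotation release nor the strand setting. Reads of overlapping and antisense genes cannot be told apart. The files of differentiating CG4 cells list 17333 genes that the other files do not, with 8.78% to 10.5% of the control counts, and all tests used the 15219 shared genes. Gene names came from 2 tables of the authors' comparisons, whose normalized signal, log2 fold changes and p-values, made with DESeq2 per the submitters' processing notes, were not used as values. They named 12432 of the shared genes and left 2787 without a symbol.

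Counts of the 8 libraries were filtered with filterByExpr, scaled by TMM and tested with edgeR 4.0.16 (quasi-likelihood, Benjamini-Hochberg adjustment over all genes tested), and the proliferating difference and the change between states in 1 fit of the 15 libraries of both states. Simulated counts with set fold changes were used to check the procedure. Depth limits precision most for genes with few counts, and the groups of this comparison had between 22624183 and 44270952 counts per library over the shared genes.

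Named genes were a panel of 16 (15 of them reported here), the 12 largest log2 differences (mean of at least 5 CPM in 1 source, groups not overlapping) and the 8 largest CPM differences in each direction, and list members with the smallest adjusted p (up to 3 per direction). The other 66 of the 207 genes named were chosen after their values were seen. Members, lists and tests were chosen with earlier results of these data known. No tested gene belonged to the lists of Hox genes, MHC class II or mitochondrially encoded genes. Alternatives covered scaling, filter, tool, depth, replicate block, libraries left out and wider fits; the fits on primary libraries 1 and 2 or 3 and 4 alone were added after seeing the data.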

Additional observations from a re-analysis of the deposited data

Results flagged for a closer look

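In 23 of 414 groups of 4 libraries checked for the genes named above, 1 library lay further from the rest than Dixon's critical value for 4 samples allows, near the 5% of groups that chance alone marks. Libraries that lay above the other 3 were the following. Cadm4 had 1949 CPM in primary replicate 1 against 1706 to 1727 in the others. Cdkn2a had 243 CPM in CG4 replicate 4 against 193 to 197 in the others. Dnmt3b had 1.76 CPM in primary replicate 3 against 0.903 to 1.04 in the others. Irx3 had 0.278 CPM in primary replicate 2 against 0.176 to 0.189 in the others. Kcnk1 had 5.78 CPM in CG4 replicate 3 against 1.97 to 2.61 in the others. Laptm5 had 0.821 CPM in CG4 replicate 2 against 0.318 to 0.394 in the others. Nfasc had 3401 CPM in CG4 replicate 3 against 1980.2 to 2194 in the others. Nkx6-1 had 0.220 CPM in primary replicate 3 against 0 to 0.0347 in the others. Olig2 had 1069.7 CPM in primary replicate 1 against 935 to 958 in the others. Pllp had 0.892 CPM in CG4 replicate 1 against 0.498 to 0.546 in the others. Slc1a2 had 1.42 CPM in CG4 replicate 2 against 0.726 to 0.842 in the others. Slc24a2 had 0.864 CPM in CG4 replicate 3 against 0.249 to 0.311 in the others. Srebf2 had 735 CPM in primary replicate 1 against 673 to 677 in the others. Tpi1 had 0.426 CPM in primary replicate 4 against 0.139 to 0.176 in the others. Libraries that lay below the other 3 were these. Cd82 had 10.9 CPM in primary replicate 2 against 13.1 to 13.4 in the others. En1 had 5.62 CPM in CG4 replicate 3 against 6.85 to 7.08 in the others. Erbb4 had 50.6 CPM in primary replicate 1 against 60.2 to 61.8 in the others. Irx5 had 10.1 CPM in CG4 replicate 3 against 13.5 to 13.8 in the others. Socs2 had 39.1 CPM in CG4 replicate 3 against 81.1 to 88.8 in the others. Genes with nearly no count in primary cells were marked for counts in 1 library. Aspg had 0.0473 CPM in primary replicate 4 and 0 in the others. Dmrt2 had 0.132 CPM in primary replicate 3 and 0 in the others. Hmx2 had 0.0314 CPM in primary replicate 1 and 0 in the others. Mrgprf had 0.0314 CPM in primary replicate 1 and 0 in the others.

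The difference between the sources was not the same in both states for 9146 genes by the test of the change itself (edgeR, adjusted p under 0.05). The 6 largest changes toward CG4 were those of AABR07065531.3 (16.53), Best1 (15.13), LOC108348260 (14.55), Gapdh (13.84), Mcmdc2 (13.67) and Il16 (13.06). The 6 largest toward primary cells were those of Abhd16b (-10.10), Clip3 (-10.06), Tpi1 (-9.62), LOC108348112 (-9.44), LOC100911625 (-9.34) and LOC100912282 (-8.87). The proliferating CG4 libraries, read at 100 bases, stood apart from all 3 other groups in 10 of these 12 genes. Best1 and Mcmdc2 had no count there against 176 and 34.1 CPM in proliferating primary cells. Clip3 had 181 CPM there and Tpi1 654 CPM, while the means of the other 3 groups were at or under 1.03 CPM for both. The part of read length and counting in these values was not tested.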

How the results depend on the processing

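The count of genes that passed the fold rule on day 3, 4754, lay between 4539 (counts thinned to the smallest library) and 5486 (no filter on low counts) over all alternatives, and between 4766 and 4922 when 1 library was left out. Called genes then numbered 9244 to 9718. DESeq2 gave 5274 and RLE size factors 4741. Between 92.2% and 99.8% of the 4754 genes passed again in each alternative, lowest with all 12 differentiating CG4 libraries, where 1 of 4381 shared genes turned direction. In proliferating cells leaving out 1 library gave 8932 to 9761 called genes, 5022 to 5366 by the fold rule, and the share of these higher in CG4 was 47.7%, or 43.8% with RLE size factors and 42.9% with DESeq2. For the change between states the ranges were 8789 to 9545 and 5962 to 6336.

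Libraries with the same replicate number showed little common deviation over genes (correlations -0.037, 0.063, 0.088 and -0.072). With so few libraries this cannot show whether the numbers pair the samples. With the replicate block, 9364 genes were called and 4726 passed the fold rule on day 3, 8408 and 4888 in proliferating cells (replicates 1 to 3), and 7945 and 5695 for the change.

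Of 207 named genes, 2262 of 2277 values under other settings and 1644 of 1656 with 1 library left out kept their call, and no called difference turned direction. The 12 calls lost with 1 library left out were those of Sox10 and Mki67. Of 836 list counts under other settings 35 moved by more than 1.5 times, and of 608 with 1 library left out 34 did. Genes without a symbol, near-identical copies and few counts limit what the lists can show.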

Other observations

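A pair of neighboring genes on the X chromosome stood out after the values were seen. Otud5, which encodes a deubiquitinase, lay between 1.30 and 1.99 CPM in the 4 CG4 control libraries and between 88.3 and 90.9 CPM in the 4 primary ones, a difference of -5.79 ± 0.12 (edgeR, adjusted p = 7.67e-10). Gripap1, which encodes a partner of a glutamate receptor scaffold, lay between 1.34 and 2.17 CPM against 46.5 to 67.3 CPM (-5.03 ± 0.21, adjusted p = 2.30e-08). The genes listed on either side of the pair did not share this: Pim2, a survival kinase, was higher in CG4 (1.22 ± 0.13) and Tfe3, a lysosomal transcription factor, differed by 0.38 ± 0.09. Wild-type proliferating CG4 cells gave 0.0162 CPM for Otud5 and 0.0890 CPM for Gripap1, and proliferating primary cells 122 and 93.2 CPM. In the CG4 cells that carried Zfp488 the means on day 3 were 2.29 and 2.24 CPM, and in those that carried Nkx2.2 they were 0.824 and 0.948 CPM. The values of these further groups rest on another scaling than the ranges above. In that scaling the CG4 control means were 1.765 and 1.88 CPM, and the day 3 primary means 98.6 and 62.1 CPM. Every group of differentiating CG4 cells therefore showed low counts for both genes. The values near 0 in proliferating CG4 libraries, where Gapdh was listed near 0 too, are not read as absence. The DNA of the locus was not measured.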
